A study of Rattus norvegicus with 28 samples.

Results

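The 9 genes described here are classic targets of the glucocorticoid receptor, and they were measured in the amygdala of infant rats given corticosterone or saline at 8 days of age, or left untreated until 12 days. They are Sgk1, Tsc22d3, Dusp1, Mt1, Klf9, Pdk4, Cdkn1a, Lcn2 and Cebpd. All probe sets that the authors' table of the saline pups listed under 1 of these genes were taken, with Sgk1 written there as Sgk, Tsc22d3 as Gilz, Dusp1 as Ptpn16 and Mt1 as Mt1a. This gave 15 probe sets of the 15866 present on every array, or 9 of the 4837 genes with a symbol. Probe sets were taken by name with no filter on expression, but the members were chosen with earlier results of these data known.

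Corticosterone, the main glucocorticoid of the rat, enters cells and binds the mineralocorticoid receptor (Nr3c2) and, with lower affinity, the glucocorticoid receptor (Nr3c1). Bound receptor moves to the nucleus, where it binds glucocorticoid response elements in DNA and raises transcription of genes such as those above, often from elements far from the gene start. Infant rats of about the younger age normally secrete little corticosterone after stress, and in the amygdala the hormone is known for its role in the onset of odor aversion learning.

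The arrays covered 6 groups, each a set of rat pups trained for 45 min with 11 presentations of peppermint odor of 30 s and a tail shock of 1 s at 0.5 mA. Pups of 8 days given corticosterone gave 3 paired and 3 unpaired arrays, untreated pups of 12 days gave 4 and 4, and pups of 8 days given saline gave 7 and 7. Shock overlapped the end of the odor in paired pups and came 2 min after it in unpaired pups, and tissue was taken right after the session, so no group was left without odor and shock. Strain, dose of corticosterone and the number of pups behind a sample are not given in the sources used here, so p-values measure the spread between samples, which may be technical. The older pups had no injection, so age and injection cannot be told apart.

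Values were log2 expression, and the array quantiles differed between conditions and were nearly level within each, as when each is normalized apart. Array medians averaged 5.08 in corticosterone arrays, 6.44 in 12-day arrays and 6.12 in saline arrays of the smaller of 2 array designs. Conditions were therefore compared by within-array percentile, the position of a probe set among the 15866 on its array, on the smaller design (6 corticosterone, 4 twelve-day and 10 saline arrays). The larger design held the other 4 twelve-day and 4 saline arrays. Markers of neurons that every array should hold were high, with Snap25, a synaptic protein, at a mean percentile of 98.9 and Gad1, an enzyme of GABA synthesis, at 96.5. Slc17a7, a glutamate transporter of cortical and amygdalar neurons, lay at 79.97 over the smaller design but differed strongly between conditions, and 3 further genes listed as markers of amygdala and cortex were not measured under those symbols. The design text says that paired and unpaired groups were processed together within a condition and names no processing shared between conditions, so condition and processing cannot be told apart in comparisons across conditions. Saline and 12-day arrays also came in several sets, by replicate number and array design.

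Promoters of 8 of the 9 genes were found in RefSeq (rat build GRCr8), Cebpd being the exception, with 12 gene starts in all because Sgk1 and Tsc22d3 have 3 each. Each window held 300 bases around the start, most of them upstream. Those of Dusp1 and Mt1 are shown. Among the well measured members, their lead probe sets differed most between corticosterone and saline pups, in opposite directions. In the Dusp1 promoter (chr10:17184603-17184902, plus strand), capitals mark the cAMP response element TGACGTCA and its core TGACG, the E-box CACGTG and 1 metal response core TGCGCNC on the opposite strand. In the Mt1 promoter (chr19:10832926-10833225, minus strand), capitals mark the metal response cores TGCACNC and TGCGCNC on either strand.
Dusp1: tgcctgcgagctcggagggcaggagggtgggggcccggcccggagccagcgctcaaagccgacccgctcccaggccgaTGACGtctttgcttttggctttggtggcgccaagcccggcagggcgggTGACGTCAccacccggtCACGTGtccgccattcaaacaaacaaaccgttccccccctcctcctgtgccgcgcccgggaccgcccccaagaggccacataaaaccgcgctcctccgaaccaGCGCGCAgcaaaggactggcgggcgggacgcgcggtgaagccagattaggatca
Mt1: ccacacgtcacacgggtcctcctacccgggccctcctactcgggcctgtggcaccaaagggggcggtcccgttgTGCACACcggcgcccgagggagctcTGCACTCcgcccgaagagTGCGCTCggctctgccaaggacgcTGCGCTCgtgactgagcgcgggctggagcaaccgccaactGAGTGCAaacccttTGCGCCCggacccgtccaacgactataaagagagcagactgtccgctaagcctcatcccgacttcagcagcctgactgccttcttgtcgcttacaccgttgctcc

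Motifs were searched on both strands. The Mt1 window held 3 matches to TGCACNC and 3 to TGCGCNC, cores of the element bound by the zinc-sensing factor MTF1, which occur in 12.2% and 14.1% of the 33469 rat promoters of this length. The Dusp1 window held TGACGTCA, found in 1.83% of promoters, and CACGTG, found in 6.42%. TGACG alone, which is part of TGACGTCA, was in the windows of 5 of the 8 genes and in 21.2% of promoters. A full glucocorticoid response element with up to 2 mismatches (AGAACA, any 3 bases, TGTTCT) and its half-site AGAACA were each in the window of 0 of the 8 genes, against 1.87% and 20.7% of all promoters. These matches describe letters in short windows and do not show binding.

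Across the 15 probe sets, 5 lead probe sets lay on average in the upper part of the arrays and the rest lay low. The lead probe set of a gene was the one with the highest mean percentile, and on the smaller design it averaged 89.1 for Klf9, 85.4 for Sgk1, 78.3 for Tsc22d3, 78.2 for Mt1 and 61.0 for Dusp1. These 5 genes are called well measured from that mean alone. In the corticosterone arrays the lead Dusp1 probe set lay lower, at 45.2 to 55.5. Percentiles of different probe sets depend on their probes, so genes are not ranked against each other by them. Pdk4, a kinase that shuts down pyruvate oxidation, had log2 values of 2.23 to 3.39 on the 28 arrays. Lcn2, an iron-binding secreted protein of inflammation, had 1.64 to 1.91, and Cdkn1a, the cell cycle inhibitor p21, had 1.67 to 2.06. The lead probe set of Cebpd, a transcription factor of the acute phase response, had 2.04 to 2.69. For scale, the 5th percentile of the saline arrays averaged 1.92 and the 20th averaged 2.46, so these 4 genes sat in the densely packed lowest levels of the arrays, where a small change in log2 moves the percentile far.

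**Figure D1:**
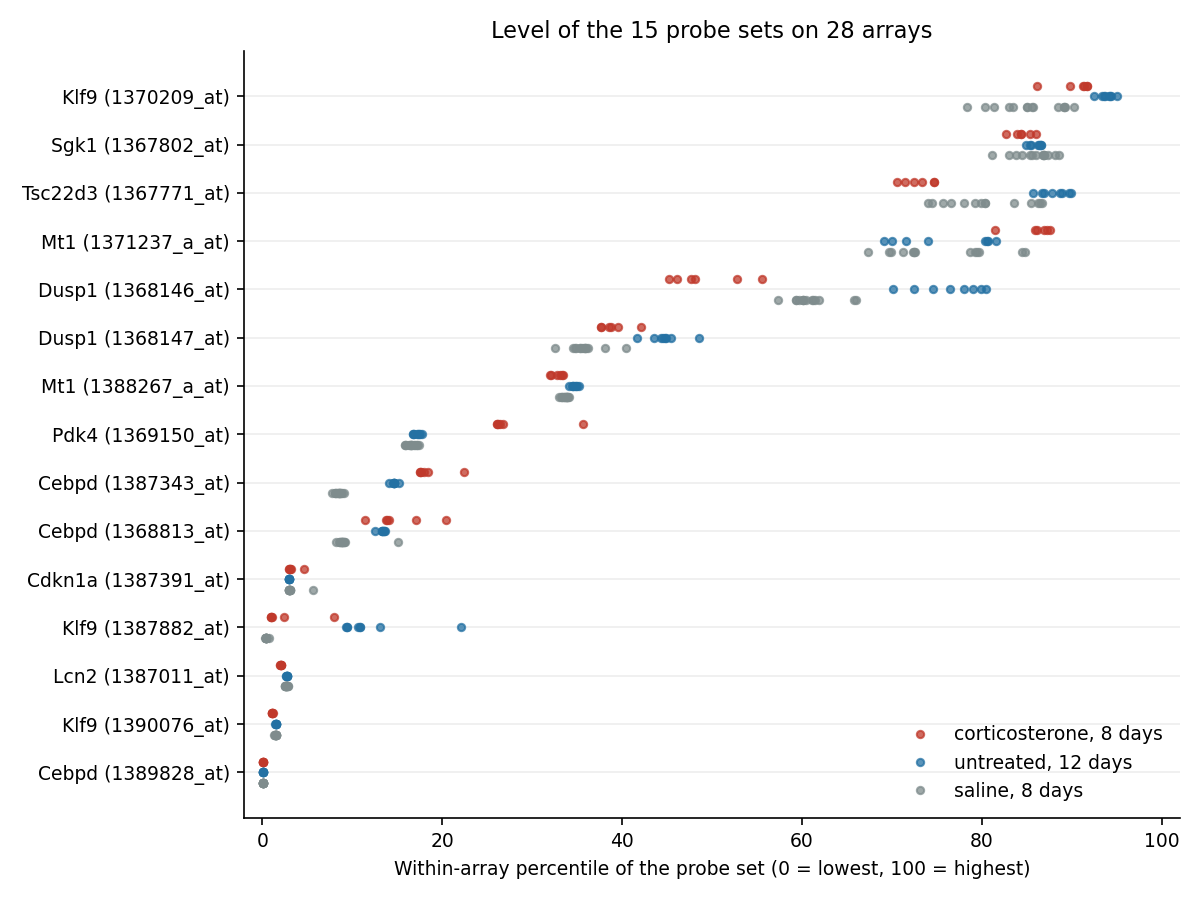
Within-array percentile (x axis) of the 15 probe sets (rows) on all 28 arrays, 1 point per array, with corticosterone above 12-day and saline arrays in each row. Klf9, Sgk1, Tsc22d3 and Mt1 each have 1 probe set in the upper part of the arrays. The lead Dusp1 probe set lies near the middle in corticosterone arrays and higher in the others, while the remaining probe sets lie low.

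The 5 well measured genes did not differ in 1 direction between corticosterone and saline pups. Relative to the rest of the array, the lead probe sets of Dusp1 and Tsc22d3 were lower in corticosterone than in saline pups. Those of Mt1 and Klf9 were higher, and that of Sgk1 did not pass the test. In all, 11 of the 15 probe sets passed (limma on percentiles, Benjamini-Hochberg adjusted p under 0.05), 7 higher and 4 lower in corticosterone pups. The same test called 62.1% of all probe sets, 27.8% higher and 34.2% lower, so a call among the members is close to what any probe set had. The split depended on scaling: 4417 probe sets were higher and 5431 lower on percentiles, 7608 and 4287 on median-centred log2, and 3788 and 9488 on deposited log2, where the median difference of all probe sets was 0.28 and -0.76. The median difference was 0.07 percentile points over the 15 probe sets and -0.19 over all. Corticosterone arrays were compared with saline arrays that themselves differed. Between saline replicates 5 to 7 and replicates 1 to 2, all of the smaller design, 38.2% of probe sets passed the same test, in a comparison added after the data were seen, and with the set of arrays as a random block 33.3% of all probe sets and 6 of the 15 passed for corticosterone against saline.

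The 2 probe sets of Dusp1, a phosphatase that switches off MAP kinases, went in opposite directions in corticosterone against saline pups. Its lead probe set (1368146_at) lay between 45.2 and 55.5 in the 6 corticosterone arrays, with a median of 47.9, against 59.4 to 66.0 with a median of 60.8 in the 10 saline arrays. Every corticosterone array was below every saline array. The difference was -12.3 percentile points (SE 1.56, limma adjusted p = 5.77e-06), and it was -10.9 against saline replicates 1 to 2, -13.2 against replicates 5 to 7 and -12.1 with the set of arrays as a random block (adjusted p = 0.0189). After quantile normalization of the log2 values the difference was -1.47. The second Dusp1 probe set (1368147_at) went the other way, at 39.0 ± 1.68 in corticosterone and 36.0 ± 2.11 in saline arrays (SD, n = 6 and 10), a difference of 3.05 (SE 0.98, adjusted p = 0.0144), with overlapping ranges, and it did not pass with the replicate block (adjusted p = 0.0568). The 2 probe sets of this gene therefore disagreed for this comparison, and which part of the transcript each one reads was not analysed here.

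Mt1, a metallothionein that buffers zinc and copper and responds to both metals and glucocorticoids, was higher in corticosterone pups. Its lead probe set (1371237_a_at) ranged from 81.5 to 87.5 with a median of 86.5 in corticosterone arrays, against 67.4 to 84.8 with a median of 78.9 in saline arrays. Corticosterone arrays overlapped only the upper end of the saline range. The difference was 9.43 percentile points (SE 2.58, limma adjusted p = 0.00532), and 0.91 in quantile-normalized log2. Its size depended on the saline arrays it was set against: 16.3 (SE 1.09) against replicates 1 to 2 and 4.83 (SE 1.12) against replicates 5 to 7, both passing the test. Saline replicates 5 to 7 were above replicates 1 to 2 by 11.5 points (SE 1.15, adjusted p = 0.000167), which is larger than the corticosterone difference over all saline arrays. Deposited log2 values, which carry the shift between conditions, gave the opposite sign for Mt1 (-0.48, adjusted p = 0.0518). The second Mt1 probe set (1388267_a_at), near percentile 33.5 on the smaller design, did not pass (-0.76, SE 0.32, adjusted p = 0.0508). Whether these probe sets also read other metallothioneins was not tested.

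Tsc22d3, also named Gilz, a glucocorticoid-induced leucine zipper protein that restrains inflammatory transcription, was lower in corticosterone pups. It lay at 70.6 to 74.7 with a median of 72.9 in corticosterone arrays and at 74.0 to 83.6 with a median of 78.6 in saline arrays, so the ranges touched at their ends. The difference was -5.36 percentile points (SE 1.36, limma adjusted p = 0.00311). It was -8.20 (SE 1.01) against saline replicates 1 to 2 and -3.46 (SE 1.03) against replicates 5 to 7, and with the set of arrays as a random block it did not pass (-5.74, SE 2.49, adjusted p = 0.0919). Saline replicates 5 to 7 lay below replicates 1 to 2 by a difference of -4.74 (SE 1.20, adjusted p = 0.0148).

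Klf9, a zinc finger transcription factor induced by glucocorticoids and thyroid hormone in neurons, passed the test by a narrow margin. Its lead probe set (1370209_at) ranged from 86.1 to 91.7 with a median of 91.3 in corticosterone arrays, against 78.4 to 90.3 with a median of 87.1 in saline arrays. The ranges overlapped, and the difference of 4.09 percentile points (SE 1.67) had a limma adjusted p of 0.0447. It did not pass against saline replicates 1 to 2 alone (0.89, SE 0.95, adjusted p = 0.413), with the set of arrays as a random block (3.65, SE 3.27, adjusted p = 0.424), with the replicate block (4.09, SE 2.17, adjusted p = 0.126), or without any 1 of 9 of the 16 arrays of this comparison, where adjusted p reached 0.091. Deposited log2 values gave -0.90 (adjusted p = 0.000556). Its other probe sets lay in the lowest levels.

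Sgk1, a kinase that regulates ion channels and is used widely as a readout of glucocorticoid action in brain, did not pass. Percentiles were 82.7 to 86.0 with a median of 84.4 in corticosterone arrays and 81.2 to 88.5 with a median of 86.8 in saline arrays, the first range inside the second. The difference was -1.36 percentile points with a 95% interval of -3.26 to 0.54 (SE 0.89, limma adjusted p = 0.197). Against saline replicates 1 to 2 it was -3.17 (SE 0.58, adjusted p = 0.000916) and against replicates 5 to 7 it was -0.15 (SE 0.79, adjusted p = 0.882). Centring each array on its median gave a log2 difference of -0.51 (adjusted p = 0.000159), so for this gene the call depended on the scaling.

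**Figure D2:**
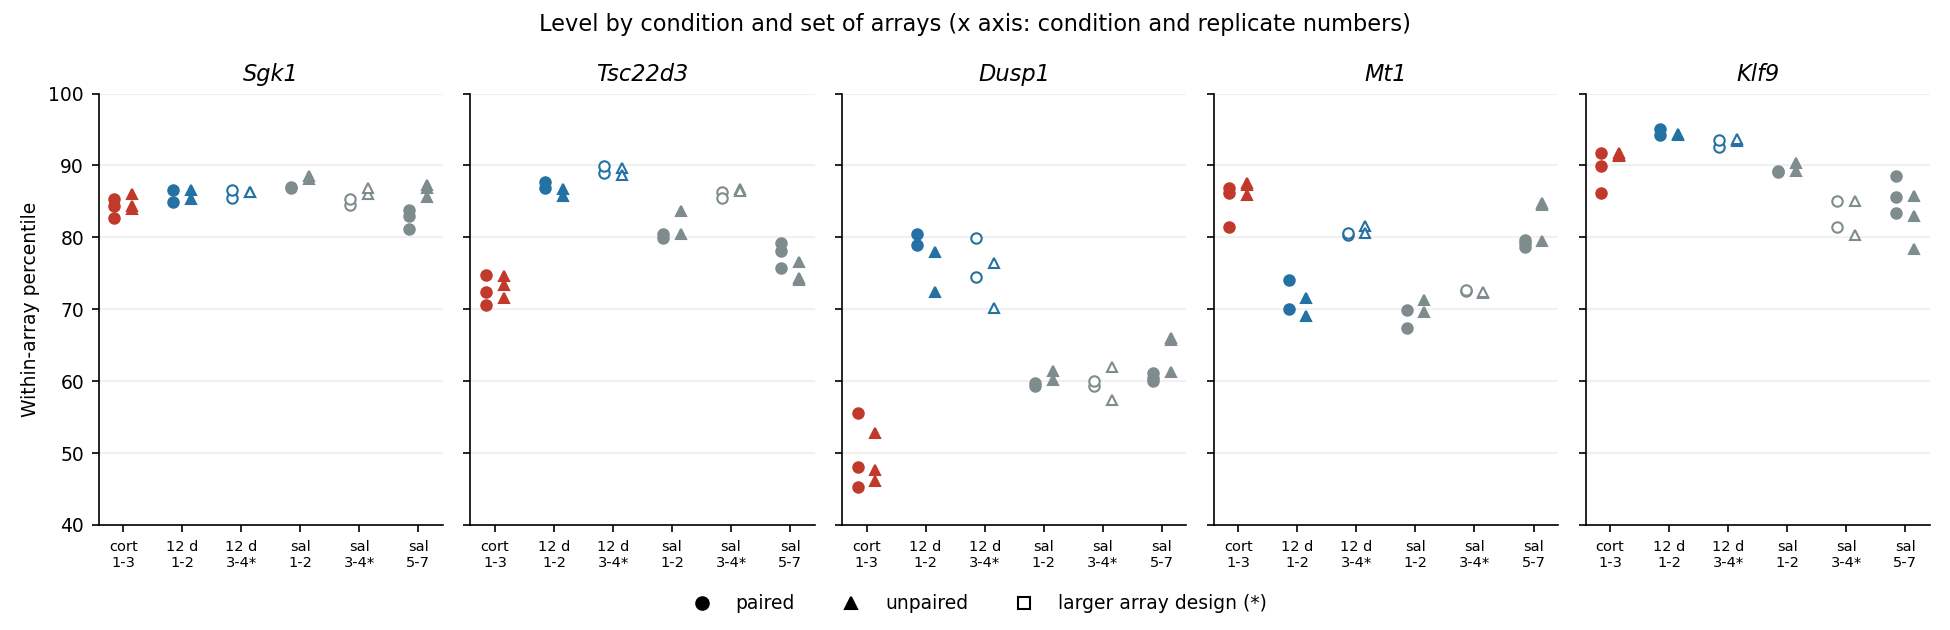
Within-array percentile (y axis, from 40 to 100) of the lead probe sets of 5 genes by condition and replicate numbers (x axis; cort, corticosterone; 12 d, 12-day; sal, saline), with circles for paired arrays, triangles for unpaired arrays and open symbols for the larger design. Dusp1 is lowest in corticosterone and highest in 12-day arrays, and the saline sets of Mt1, Tsc22d3 and Klf9 stand at different levels.

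At the lowest levels, the lead probe set of Cebpd was at 18.6 ± 1.92 in corticosterone and 8.38 ± 0.40 in saline arrays (percentile, SD, n = 6 and 10), a difference of 10.2 (SE 0.58, limma adjusted p = 6.09e-10). Pdk4 was at 27.9 ± 3.83 in corticosterone arrays and 16.5 ± 0.52 in saline arrays, a difference of 11.4 (SE 1.15, adjusted p = 4.76e-07). For both of these probe sets no corticosterone array overlapped a saline array. The share of all probe sets without overlap was not computed. Cebpd 1368813_at did overlap, at 11.4 to 20.4 in corticosterone and 8.15 to 15.1 in saline arrays. Cebpd 1389828_at was lower in corticosterone arrays, at 0.04 against 0.06 in saline arrays. These ranks differ between conditions in a region where the conditions also differed in shape. The 20th percentile averaged 2.61 in corticosterone and 2.46 in saline arrays (log2). Lcn2 was at 2.00 ± 0.04 in corticosterone and 2.59 ± 0.07 in saline arrays, a difference of -0.58 (SE 0.04, adjusted p = 8.08e-09), and Cdkn1a did not pass (0.07, SE 0.36, adjusted p = 0.882). Paired replicate 1 had the highest corticosterone value of Pdk4 (35.7), Cebpd (22.4) and Cdkn1a (4.61).

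By 12 days, Dusp1, Tsc22d3 and Klf9 stood higher than in saline pups of 8 days, on both array designs. Of the 15 probe sets, 8 passed, 8 higher and 0 lower, beside 52.8% of all probe sets, 28.6% higher and 24.2% lower (4537 and 3846 on percentiles, 2932 and 7599 on median-centred log2, where the median of all was -0.27). On the larger design 11 of 15 passed, beside 67.2% of all, and with the set of arrays as a random block 5 of 15 passed, beside 23.4% of all. The median difference on the smaller design was 1.00 percentile points over the 15 and 0.17 over all.

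Dusp1 had the largest age difference among the lead probe sets. On the smaller design its lead probe set lay at 79.0 and 80.4 in paired and at 78.0 and 72.5 in unpaired 12-day arrays, against 59.4 to 66.0 in the 10 saline arrays. On the larger design it lay at 74.5 and 79.9 in paired and 70.1 and 76.4 in unpaired 12-day arrays, against 59.3 and 60.1 in paired and 61.9 and 57.3 in unpaired saline arrays. No 12-day array overlapped a saline array on either design. The differences were 15.9 (SE 1.61, limma adjusted p = 3.26e-06) and 15.6 percentile points (SE 2.04, adjusted p = 0.000557). The second probe set moved the same way here, by 9.82 points (SE 1.03, adjusted p = 4.41e-06). Against corticosterone pups the 12-day arrays were higher by 28.2 points (SE 2.29, adjusted p = 2.72e-06), in a comparison that called 81.7% of all probe sets, so the 3 conditions were ordered corticosterone, saline, 12-day for the lead probe set, with no overlap between neighbours.

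Klf9 lay at 94.2 and 95.03 in paired and at 94.3 and 94.4 in unpaired 12-day arrays of the smaller design, against 78.4 to 90.3 in saline arrays. All 12-day arrays were above all saline arrays. The difference was 8.22 percentile points (SE 1.85, limma adjusted p = 0.00241) and on the larger design 10.3 (SE 1.20, adjusted p = 0.000323), and with the set of arrays as a random block it did not pass (7.79, SE 2.99, adjusted p = 0.0793). Tsc22d3 lay at 87.8 and 86.9 in paired and at 86.7 and 85.7 in unpaired 12-day arrays, against 74.0 to 83.6 in saline arrays, again without overlap. Its difference was 8.53 points (SE 1.54, adjusted p = 0.00052) on the smaller design and 3.08 (SE 0.39, adjusted p = 0.000482) on the larger one, where saline arrays were at 85.4 to 86.7.

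Sgk1 did not pass at 12 days. It lay at 84.9 and 86.5 in paired and at 86.6 and 85.3 in unpaired 12-day arrays, inside the saline range, a difference of 0.01 percentile points with a 95% interval of -2.26 to 2.29 (SE 1.05, limma adjusted p = 0.993). Against saline replicates 1 to 2 alone it was -1.80 (SE 0.50, adjusted p = 0.0199). Mt1 had no settled direction with age. Its lead probe set lay at 70.0 and 74.0 in paired and 71.6 and 69.1 in unpaired 12-day arrays of the smaller design, a difference of -5.26 points from saline (SE 3.23, adjusted p = 0.192), whereas on the larger design 12-day arrays (80.4 to 81.5) were all above saline arrays (72.3 to 72.6), a difference of 8.32 (SE 0.36, adjusted p = 2.32e-06). Within the smaller design the difference was 1.64 (SE 1.35, adjusted p = 0.331) against saline replicates 1 to 2 and -9.85 (SE 1.54, adjusted p = 0.00049) against replicates 5 to 7. The direction of 12-day against saline pups for Mt1 therefore differed with the array design and with the saline arrays used.

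**Figure D3:**
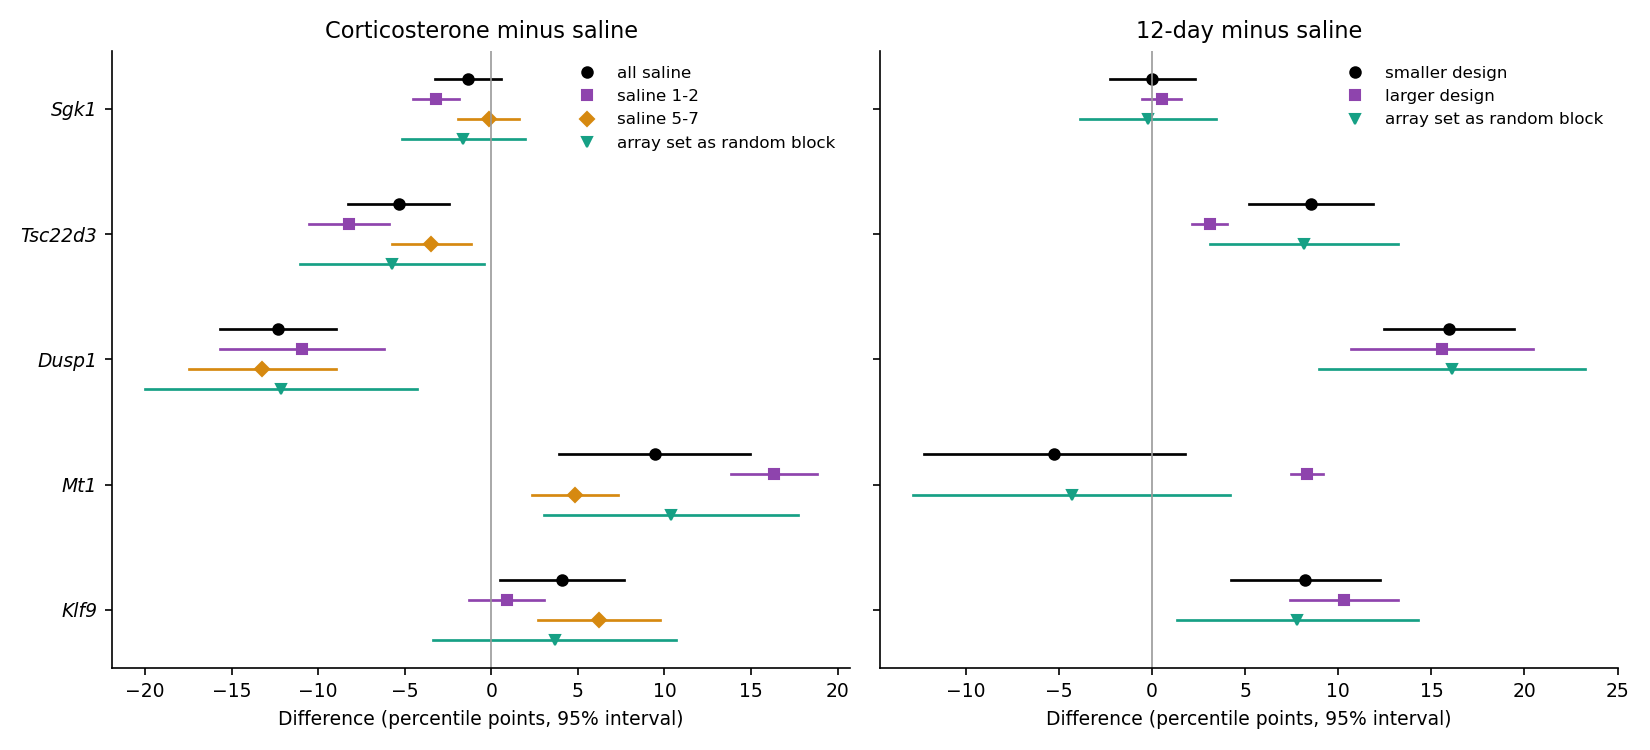
Difference in within-array percentile (x axis, percentile points) for 5 genes, corticosterone minus saline at left and 12-day minus saline at right, with 95% intervals from limma. Values under 0 mean lower than saline, and Dusp1 keeps its direction in every setting shown while Mt1 with age does not.

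Cell type markers moved strongly with age. Of all probe sets 28.6% passed as higher and 24.2% as lower in 12-day than in saline pups. All 10 oligodendrocyte markers, among them Mbp of myelin, passed as higher in 12-day than in saline pups, with a median difference of 29.1 percentile points. The mean percentile of the list ranged from 91.1 to 92.7 in 12-day arrays, from 54.7 to 66.0 in saline arrays, and from 52.9 to 58.5 in corticosterone arrays, where 3 of 10 passed as lower than in saline pups. Of 8 astrocyte markers, 4 passed as higher and 1 as lower at 12 days, with list means of 85.5 to 86.5 in 12-day and 78.1 to 83.5 in saline arrays. Of 6 measured markers of endothelium and pericytes, 4 passed as higher (54.4 to 55.7 in 12-day and 48.3 to 52.8 in saline arrays). Of 4 measured microglia markers, 3 passed as higher and 0 as lower, with a median difference of 8.49 and list means of 43.5 to 47.5 in 12-day and 37.6 to 41.8 in saline arrays. Of 3 measured blood markers, 2 passed as lower and 0 as higher (82.5 to 85.5 in 12-day and 84.7 to 87.4 in saline arrays), and of 6 neuron markers 3 passed as higher and 0 as lower. The part of cell composition in the members' differences was not tested, and in whole tissue more cells of a type and more RNA per cell cannot be told apart.

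Of 6 measured neuron markers, 4 passed as lower and 0 as higher in corticosterone than in saline pups, beside 34.2% and 27.8% of all probe sets. Their list means were 86.3 to 88.3 in corticosterone and 88.3 to 94.3 in saline arrays, and their part in the lower members was not tested. Slc17a7 was at 64.1 to 67.1 in corticosterone, 97.5 to 98.1 in 12-day and 67.6 to 93.0 in saline arrays of the smaller design. Its corticosterone minus saline difference was -15.4 (SE 4.06, limma adjusted p = 0.00404) and its 12-day minus saline difference was 16.4 (SE 4.99, adjusted p = 0.0146). These shifts were larger than those of any lead probe set of the members in the same comparison and had the order of conditions seen for Dusp1, and their part in the Dusp1 values was not tested.

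Other glucocorticoid-responsive genes were called in both directions in corticosterone against saline pups, at shares close to those of all probe sets. Of 30 such genes listed, 18 were measured. Of these 5 passed as higher and 6 as lower in corticosterone than in saline pups, with a median difference of -0.44 percentile points. Of all probe sets 27.8% passed as higher and 34.2% as lower. Tat, a liver enzyme used as a textbook target, was at 6.94 ± 0.10 in corticosterone and 3.76 ± 0.14 in saline arrays (difference 3.17, SE 0.07, limma adjusted p = 6.86e-15), both among the lowest levels. Dusp5, another MAP kinase phosphatase, was at 26.4 ± 5.72 in corticosterone and 40.3 ± 1.33 in saline arrays (-13.9, SE 1.77, adjusted p = 6.08e-06). In 12-day pups 11 of the 18 passed as higher and 2 as lower than in saline pups, with a median of 2.90. The shares of all probe sets were 28.6% and 24.2%. Gjb6, a gap junction protein of astrocytes, was at 62.2 ± 1.84 in 12-day and 36.6 ± 4.01 in saline arrays, whereas Txnip, an inhibitor of thioredoxin, was at 58.4 ± 3.21 in 12-day and 79.4 ± 3.05 in saline arrays.

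Among 9 measured genes of 12 listed for corticosteroid receptors and hormone handling, 3 passed as higher and 1 as lower in corticosterone pups. The shares of all probe sets were 27.8% and 34.2%. Nr3c1, the glucocorticoid receptor, was at 57.1 ± 1.16 in corticosterone and 56.5 ± 4.98 in saline arrays and did not pass (0.58, SE 2.08, limma adjusted p = 0.82). Nr3c2, the mineralocorticoid receptor, was at 40.1 ± 1.70 in corticosterone and 51.0 ± 2.84 in saline arrays, a difference of -10.9 (SE 1.26, adjusted p = 2.21e-06). At 12 days Nr3c1 was at 66.9 ± 3.73 and Nr3c2 at 57.3 ± 0.25, both higher than in saline pups (adjusted p = 0.00681 and 0.00301).

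Dusp1 is also an immediate early gene, induced within minutes by neuronal activity, so a list of 20 such genes was set beside it. Of 16 measured, 5 passed as higher and 6 as lower in corticosterone pups, beside 27.8% and 34.2% of all probe sets. Their median difference was -0.65 percentile points. Egr4 was at 24.0 ± 1.84 in corticosterone and 43.9 ± 0.835 in saline arrays, and Arc at 38.3 ± 1.18 in corticosterone and 47.0 ± 0.64 in saline arrays. Both were lower in corticosterone pups, as the lead Dusp1 probe set was. Fosl2 was higher, at 36.9 ± 2.99 in corticosterone and 12.5 ± 3.81 in saline arrays. At 12 days 10 of the 16 passed as higher than in saline pups and 0 as lower, with a median of 5.93 points. The shares of all probe sets were 28.6% and 24.2%. Arc was at 74.6 ± 3.62 in 12-day and 47.0 ± 0.64 in saline arrays, and Nr4a1 at 77.5 ± 1.57 in 12-day and 52.2 ± 2.57 in saline arrays.

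Within a condition, the group labels of paired and unpaired pups differed in training alone. Their array quantiles were nearly level, so deposited log2 values were compared. Rank products, the authors' own test, called 0 of the 15 probe sets at a proportion of false positives (pfp) under 0.05 in each condition. Calls were rare in general, at 0.0252% of probe sets in corticosterone, 0.0504% in 12-day and 0.176% in saline pups. The lowest pfp of a member was 0.775 in corticosterone, 0.713 in 12-day and 0.893 in saline pups, and in the authors' deposited table it was 0.780, 0.728 and 0.899. Ranges of paired and unpaired arrays overlapped for all 15 probe sets in all 3 conditions. The share of all probe sets with such overlap was not computed, so this says nothing particular about the members. Limma gave 0 adjusted calls as well, among the members and among all 15866 probe sets. In corticosterone, 12-day and saline pups, 2, 0 and 1 of the 15 were below an unadjusted limma p of 0.05. Over all probe sets these counts were 449, 73 and 72. The 2 in corticosterone pups were Klf9 1390076_at (-0.03) and Cebpd 1389828_at (-0.02), both at the lowest levels.

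In saline pups Sgk1 was lower in paired arrays at every replicate number. Its log2 values in paired pups ran from 9.36 to 10.01 with a median of 9.62, against 9.77 to 10.20 with a median of 9.90 in unpaired pups. Paired arrays were below the unpaired array of the same replicate number in 7 of 7 numbers, by 0.15 to 0.55, although the groups overlapped. The same number gave the closest match in 3 of 7 saline pairs, so numbers may not mark matched arrays. The mean difference was -0.26 (SE 0.11, 95% interval -0.51 to -0.02, pfp 0.893, or 0.308 between same-numbered arrays), and with the replicate block in limma its SE was 0.06 and its adjusted p 0.241, so it did not pass. Agreement in 7 of 7 numbers was not particular to Sgk1. Cdkn1a, Lcn2, Klf9 1390076_at and Cebpd 1389828_at, all at the lowest levels, were higher in the paired array in 7 of 7. Their mean differences were 0.04, 0.02, 0.02 and 0.02, beside a median of 0.02 over all probe sets. The share of all probe sets with such agreement was not computed. In corticosterone pups Sgk1 measured 8.38, 8.27 and 8.12 in paired and 8.22, 8.44 and 8.30 in unpaired arrays, a difference of -0.06 (SE 0.09). At 12 days the difference was -0.01 (SE 0.08), with a 95% interval of -0.19 to 0.18. The pairing effect did not pass as different from that of saline pups in either condition (limma, 0.20, SE 0.19 for corticosterone, and 0.26, SE 0.16 for 12-day, adjusted p = 1.00 for both). Oligodendrocyte markers also ran lower in paired saline pups, 9 of 10 with a median of -0.18 and 1, Ugt8, called, and their summed linear level ranged from 4017 to 9401 in paired and from 3882 to 11587 in unpaired arrays. Their part in the Sgk1 difference was not tested.

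Dusp1 in 12-day pups ran the other way. Its lead probe set measured 9.51, 9.66, 9.04 and 9.46 in paired and 9.42, 8.90, 8.60 and 9.21 in unpaired arrays of replicates 1 to 4, higher in the paired array in 4 of 4 numbers. The second probe set measured 5.41, 6.20, 5.34 and 5.42 in paired and 5.37, 5.53, 4.76 and 5.15 in unpaired arrays, again higher in 4 of 4. Differences were 0.38 (SE 0.20, pfp 0.713) and 0.39 (SE 0.24, pfp 0.759), and neither passed. Between same-numbered arrays their pfp was 0.226 and 0.208. With the replicate block the SEs were 0.12 and 0.14 and both limma adjusted p were 1.00. Agreement in 4 of 4 numbers was not particular to Dusp1, and Klf9 1387882_at, at the lowest levels, was lower in 4 of 4. The share of all probe sets with such agreement was not computed. In saline pups the lead Dusp1 probe set measured 7.37 ± 0.05 in paired and 7.56 ± 0.30 in unpaired arrays (SD, n = 7 each), a difference of -0.19 (SE 0.13). The paired saline values were tightly bunched and the unpaired ones were not. The pairing effect in 12-day minus that in saline pups was 0.58 (SE 0.23, unadjusted p = 0.0195, limma adjusted p = 1.00), and 0% of all probe sets passed this test, as for the pairing effect in corticosterone minus that in saline pups (0%). In 12-day pups oligodendrocyte markers were lower in paired arrays in 10 of 10, with a median of -0.09, none called. Of 5 measured choroid plexus markers, 3 ran higher and 2 lower in paired arrays, with a median of 0.11. Ttr alone of these was called, as higher (13.56 ± 1.07 in paired and 11.46 ± 3.34 in unpaired arrays, log2, SD, n = 4 each). The summed linear level of the choroid plexus markers varied widely, from 4776 to 24705 in paired and from 851 to 22134 in unpaired arrays. The part of either marker list in the Dusp1 values was not tested.

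**Figure D4:**
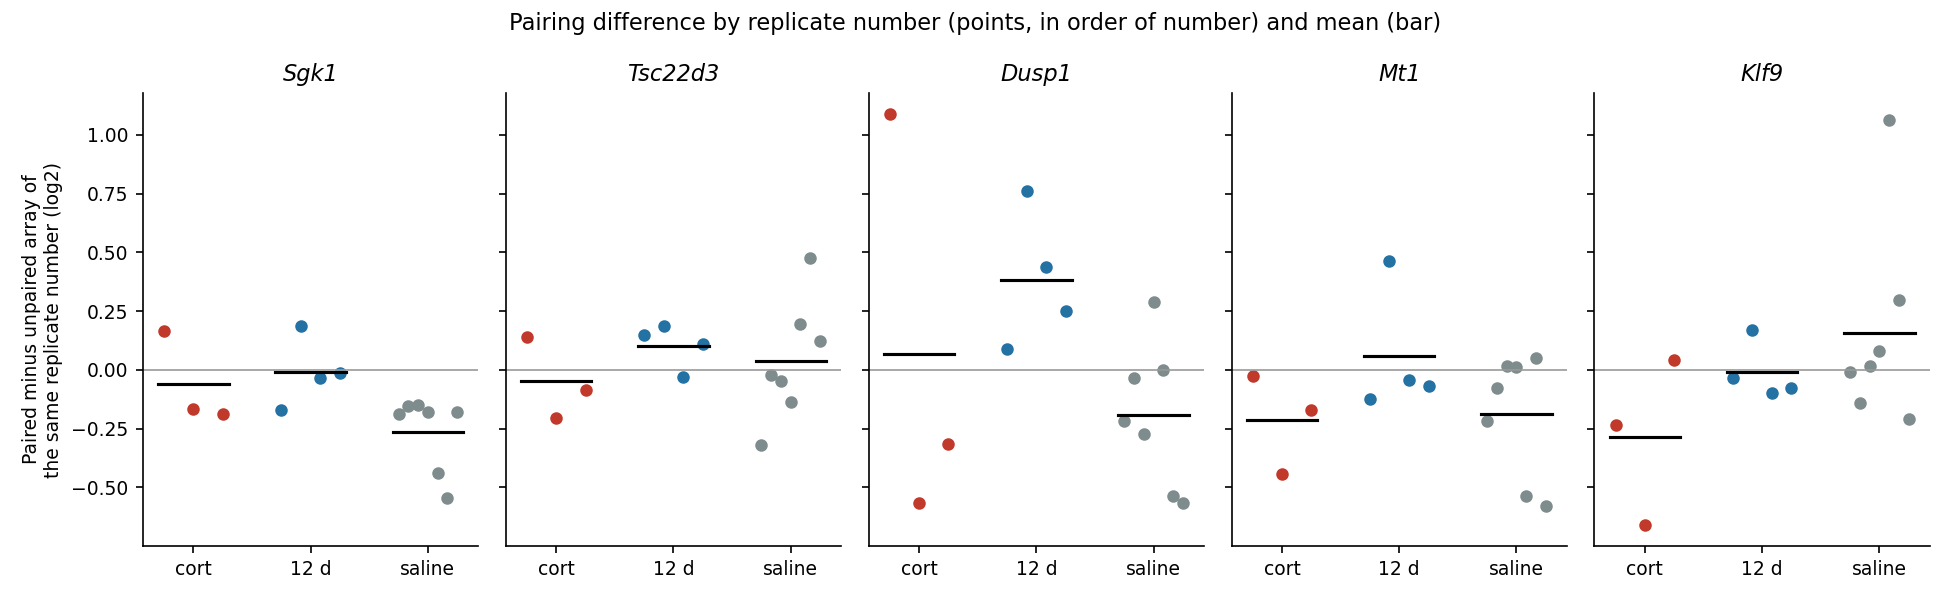
Paired minus unpaired log2 value for arrays of the same replicate number (y axis) for 5 genes in 3 conditions (x axis; cort, corticosterone; 12 d, 12-day), with 1 point per number and a bar at the mean. Sgk1 lies below 0 in all 7 saline numbers and Dusp1 above 0 in all 4 twelve-day numbers, and neither passed the test across all probe sets.

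The pairing differences of Mt1 and Klf9 in corticosterone pups rested on 1 array. Mt1 measured 8.57, 7.98 and 8.48 in paired and 8.60, 8.42 and 8.65 in unpaired corticosterone arrays (-0.21, SE 0.16, pfp 0.92). Klf9 measured 8.93, 8.47 and 9.19 in paired and 9.17, 9.14 and 9.15 in unpaired corticosterone arrays (-0.28, SE 0.17, pfp 0.775). Unpaired Klf9 values were nearly level while the paired ones spread widely, and in paired replicate 2 both genes had their lowest value. Without that array the differences were -0.03 for Mt1 and -0.09 for Klf9, and in saline pups they were -0.19 (SE 0.25) for Mt1 and 0.16 (SE 0.22) for Klf9. Tsc22d3 differences were -0.05 (SE 0.11) in corticosterone, 0.10 (SE 0.11) in 12-day and 0.04 (SE 0.23) in saline pups.

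The 5 well measured genes did not vary as 1 group from array to array. After removing the mean of each set of arrays, their Pearson correlations over the 28 arrays ran from -0.44 for Sgk1 with Klf9 to 0.50 for Sgk1 with Dusp1. These points share arrays, normalization and training, and the values describe them only. Probe sets of other genes were also searched for those that followed each member most closely. Far more probe sets were searched than there are members, so higher values here than between members say nothing about grouping. The nearest were Dpp7 and Calr for Sgk1 (r = 0.77 and 0.77), Exoc7 and Gabarapl2 for Tsc22d3 (0.75 and 0.71), Ddah1 and Plvap for Dusp1 (0.74 and 0.72), Eef1d and Phyh for Mt1 (0.72 and 0.71), and Rasd2 and Gucy1b1 for Klf9 (0.79 and 0.79). Array-to-array spread within a training group and set of arrays was largest for Dusp1, with a pooled SD of 0.34 log2, above that of 93.1% of all probe sets, and 0.10 for Sgk1, above that of 31.1%.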

How the data were processed

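Labels gave the group and replicate number of each of 28 arrays. The values per array were log2 expression as the authors deposited them. RMA and GCRMA are named, with no version, in the submitters' processing notes. Per the file headers, the authors' 3 deposited comparison tables hold rank product statistics (a score), a fold change (a ratio, unpaired over paired), the pfp (a score that can exceed 1) and a p-value. They gave gene symbols, updated through RefSeq (GRCr8, for names and promoters only), and the pfp values quoted as the authors'. Software and probe annotation versions are not given in the sources used here, and no detection calls were used. Members, lists and tests were chosen with earlier results of these data known.

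Percentiles were computed within arrays over 15866 probe sets. Limma 3.58.1 in R 4.3.3 (lmFit, eBayes with trend, Benjamini-Hochberg at 0.05) tested conditions on the smaller design with training as a covariate and no replicate block. Rank products used 100 shuffles within arrays, with pfp under 0.05 called. Both tests were run on simulated arrays with independent noise, no sets of arrays and changes larger than the members' pairing differences. Those runs say nothing about power for differences as small as these. Tables were handled in pandas 2.3.3 under Python 3.11.15. The lead probe set of a gene had the highest mean percentile; from other lists up to 4 called genes with the smallest p per comparison could be named, and both receptors always were. Same-numbered paired and unpaired arrays deviated together from their group means in saline pups (r of 0.54 to 0.86 in 7 pairs) and 12-day pups (0.60 to 0.73 in 4). Such arrays also shared a set there. They did not deviate together in corticosterone pups (-0.28 to 0.04 in 3). The same number gave a higher r than any other number in 3 of 7 saline, 3 of 4 twelve-day and 1 of 3 corticosterone pairs. Numbers were treated as pairs in the first 2 conditions, but this cannot be told apart from sharing a set. Alternatives were other scalings, filters, blocks, subsets of saline arrays and leaving out each array. The number of arrays limits the precision.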

Additional observations from a re-analysis of the deposited data

Results flagged for a closer look

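Across 60 groups of 4 to 7 arrays, 4 held an array whose log2 value stood apart from the others by more than the limit that chance passes in about 1 group in 20. The lead probe set of Dusp1 in paired saline pups was lowest in replicate 3 at 7.27, the others lying at 7.36 to 7.41. The second Dusp1 probe set in paired 12-day pups was highest in replicate 2 at 6.20, the others lying at 5.34 to 5.42. The Klf9 probe set 1387882_at in unpaired 12-day pups was highest in replicate 4 at 2.52, the others lying at 2.07 to 2.13, and the Cebpd probe set 1368813_at in paired saline pups was highest in replicate 6 at 2.31, the others lying at 2.08 to 2.17, both in the lowest levels of the arrays.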

How the results depend on the processing

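Across all probe sets, corticosterone against saline gave 9848 calls, 5288 with the set of arrays as a random block, 8659 with the replicate block as a random term, and 3782 among probe sets with a mean percentile of at least 50. Leaving out 1 array gave 9243 to 10229. For 12-day against saline these counts were 8383, 3719, 6853, 3832 and 7183 to 8662, and for 12-day against corticosterone 12966, with 13179 under the replicate block, 6280 at a mean percentile of at least 50, and 12548 to 12877. Fewer probe sets are tested under that filter.

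For pairing, rank products called 4 probe sets in corticosterone, 8 in 12-day and 28 in saline pups, and 1 to 33, 1 to 29 and 12 to 34 without 1 array. Differences between same-numbered arrays, the replicate block of rank products, called 7, 34 and 104, and a mean log2 of at least 5 left 0, 5 and 17. Within saline replicates 1 to 2, 3 to 4 and 5 to 7, calls were 2, 10 and 15, and within 12-day replicates 3 to 4 they were 16. Limma called 0 in each condition (449, 73 and 72 probe sets below an unadjusted p of 0.05 in corticosterone, 12-day and saline pups), and 0 with the replicate block, the filter, the set of arrays as a block or percentiles too, except 2 within saline replicates 3 to 4 and 1 within 12-day replicates 1 to 2. Differences of the pairing effect between conditions gave 0 calls, 0 to 2 without 1 array for corticosterone and 0 with the replicate block. No member was called for pairing under any of these settings. Across conditions the replicate block ended 4 member calls: for corticosterone against saline the lead Klf9 probe set (adjusted p = 0.126), Klf9 1387882_at (0.134) and Dusp1 1368147_at (0.0568), and for 12-day against saline Mt1 1388267_a_at (0.0763). It ended or reversed no other.

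Signs turned as follows, in cases where either value passed, and the cause was not tested. Deposited log2 values turned corticosterone against saline for the lead Mt1 (-0.48) and Klf9 (-0.90) probe sets, and for Klf9 1390076_at (0.15), Lcn2 (0.14) and Cebpd 1389828_at (0.26). Median-centred log2 turned Mt1 1388267_a_at (0.96), Klf9 1390076_at (1.19), Lcn2 (1.18) and Cebpd 1389828_at (1.299). For 12-day against saline, the lead Mt1 probe set turned on the larger design (8.32) and Sgk1 against saline replicates 1 to 2 (-1.80). Deposited log2 turned Klf9 1390076_at (-0.0835), Lcn2 (-0.0761) and Cebpd 1389828_at (-0.17), and median-centred log2 turned Mt1 1388267_a_at (-0.20), Klf9 1390076_at (-0.40), Pdk4 (-0.37), Lcn2 (-0.40) and Cebpd (-0.19 for 1387343_at, -0.26 for 1368813_at, -0.49 for 1389828_at). For 12-day against corticosterone, deposited log2 turned the lead Mt1 probe set (0.37), Klf9 1390076_at (-0.24), Lcn2 (-0.21) and Cebpd 1389828_at (-0.42), and median-centred log2 turned Mt1 1388267_a_at (-1.16), Klf9 1387882_at (-1.13), Klf9 1390076_at (-1.60), Lcn2 (-1.58) and Cebpd 1389828_at (-1.79). Apart from the lead Mt1 and Klf9 probe sets, Mt1 1388267_a_at and Sgk1, these probe sets lie in the lowest levels. Signal over background limits what can be measured there.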
